A study of Mus musculus with 6 samples.

Results

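The genes described here encode the extracellular matrix and the contractile and surface proteins of stromal cells: collagens, elastic fibre proteins, proteoglycans, matricellular proteins, proteases with their inhibitors, and receptors of mesenchymal cells. The list holds 46 genes, of which 44 had a probe set annotated to that symbol alone among 18193 genes so named on the array. Each gene was read from its brightest probe set over the 6 arrays. Of the 44 genes, 39 passed the minimum of detection used here, a log2 intensity of 4 on at least 3 of 6 arrays, and 5 lay under it on every array. Fbn1, which encodes fibrillin 1, and Loxl2, a lysyl oxidase relative, were not analysed here, because no probe set carried either symbol alone.

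The study compared mouse embryonic stem cells heterozygous for Gata3 loss (Gata3+/-) with cells that lack both copies (Gata3-/-). Both were turned towards blood and T cells by growth on a layer of OP9 and OP9-DL1 cells. Cells described as T-cell progenitors were then sorted, by markers that the labels do not give, and measured on 3 Affymetrix arrays per genotype. OP9 is a mouse bone marrow stromal line, and OP9-DL1 is its derivative that displays the Notch ligand Delta-like 1. Cultures of both genotypes received IL-7 and Flt3L, and both genotypes grew on the same kind of stroma. The titles call the replicates biological without saying whether they were separate cultures or stem cell clones, so p-values measure the spread between these arrays only.

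A matrix is laid down by mesenchymal cells such as fibroblasts and stromal cells, which secrete procollagens folded with the help of dedicated chaperones, and then cross-link them outside the cell into fibres on which fibronectin, proteoglycans and matricellular proteins are arranged. Blood cells contribute little fibrillar collagen, although monocytes and macrophages make fibronectin, thrombospondin 1, versican and some proteases and inhibitors. In cultures of blood cells on a stromal layer, such transcripts can serve as a gauge of stroma carried along through a sort. Mesodermal cells that arise from the stem cells themselves can make the same transcripts, and on these arrays the sources cannot be told apart. The part of carried-over stroma in the values below was not tested.

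The sorted cells had a strong blood cell profile on every array. All 10 genes of a pan-haematopoietic list were measured, and their mean log2 level lay between 13.22 and 13.40. Laptm5, Coro1a and Lcp1, the 3 brightest of them, lay between 14.92 and 15.31 on all arrays. Ptprc, the common leukocyte antigen CD45, picked with its values known, stood at 14.35, 14.51 and 14.42 on the Gata3+/- arrays and 14.40, 14.42 and 14.33 on the Gata3-/- arrays, in the order of replicates 1, 2 and 3 that is kept throughout. Of 9 T-lineage genes on the array, 8 lay under the minimum on all arrays, among them Cd3e, which encodes the CD3 epsilon subunit and was picked likewise, at 2.42, 2.42 and 2.41 on the Gata3+/- arrays and 2.50, 2.42 and 2.42 on the Gata3-/- arrays. Of these T-lineage genes only Cd5 was measurable, at 4.50, 4.50 and 5.24 on the Gata3+/- arrays and 6.26, 6.71 and 5.59 on the Gata3-/- arrays. Whether the markers used in the sort are among these genes is not given by the labels. Over all 10302 genes tested, the median log2 level lay between 9.15 and 9.25 on the 6 arrays. The number of arrays limits the precision, and in a sorted population fewer cells of a type and less RNA per cell cannot be told apart.

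Promoter windows of 4 members are shown because these genes, of different matrix functions, shared one order of the 6 arrays; they were chosen after their values were seen. They are the 250 bases before the RefSeq start (build GRCm38.p6), 5′ to 3′ on the strand of the gene. Col1a2 (chr6:4505368-4505617, plus strand) encodes a chain of type I collagen, Cyr61 (chr3:145649986-145650235, minus strand, listed as Ccn1) a matricellular protein, Timp1 (chrX:20869916-20870165, plus strand) a metalloproteinase inhibitor and Bgn (chrX:73483351-73483600, plus strand) the proteoglycan biglycan. Capitals mark 4 motifs, searched on both strands: the TATA box (letters TATAAA), the CCAAT box, the TEAD motif (letters GGAATG) and the GC box (letters GGGCGG).
Col1a2: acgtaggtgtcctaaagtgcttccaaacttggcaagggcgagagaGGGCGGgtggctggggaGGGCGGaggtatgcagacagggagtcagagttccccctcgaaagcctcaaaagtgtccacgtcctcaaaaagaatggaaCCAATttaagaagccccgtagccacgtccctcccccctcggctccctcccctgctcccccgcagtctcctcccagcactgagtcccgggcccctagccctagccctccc
Cyr61: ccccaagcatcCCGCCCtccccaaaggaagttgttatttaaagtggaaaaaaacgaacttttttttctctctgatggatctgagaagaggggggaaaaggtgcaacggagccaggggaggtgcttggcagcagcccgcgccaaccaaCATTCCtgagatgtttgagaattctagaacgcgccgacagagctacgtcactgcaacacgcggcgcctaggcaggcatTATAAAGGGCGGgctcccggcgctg
Timp1: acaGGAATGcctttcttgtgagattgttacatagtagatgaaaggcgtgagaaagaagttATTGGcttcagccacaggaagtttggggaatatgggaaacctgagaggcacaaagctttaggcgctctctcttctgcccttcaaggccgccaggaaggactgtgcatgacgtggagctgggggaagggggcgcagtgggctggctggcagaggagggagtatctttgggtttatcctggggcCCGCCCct
Bgn: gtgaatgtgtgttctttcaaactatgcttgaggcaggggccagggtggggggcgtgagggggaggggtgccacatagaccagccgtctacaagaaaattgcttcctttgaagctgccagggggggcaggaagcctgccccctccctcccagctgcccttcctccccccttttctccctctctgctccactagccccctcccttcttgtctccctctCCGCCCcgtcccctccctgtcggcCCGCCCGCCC

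The RefSeq table held 33 such windows for 28 of the 46 genes. GGGCGG was found in 20 of the 33 member windows, against 32.7% of all 32851 windows. CCAAT was found in 9 (all windows 33.8%), TATAAA in 7 (12.4%) and GGAATG in 5 (12.6%). TGANTCA, the AP-1 motif, was found in 1 window, that of Col6a1 (6.75%), and the CArG box in none (1.47%). Adjoining GC boxes overlap in the window of Bgn, and a GC box follows the TATAAA of Cyr61 directly. A match describes the letters of the window and does not show a site in use. No motif was common to the 4 windows printed apart from the GC box.

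Most of the matrix genes were low on replicate 2 of both genotypes. The shift of replicate 2 is the log2 level on that array minus the mean of replicates 1 and 3 of the same genotype, and its median over the 39 tested members was -2.28 in Gata3+/- and -2.08 in Gata3-/-, against -0.02 and 0.02 over all genes tested. Replicate 2 was the lowest of the 3 arrays in both genotypes for 35 of 39 members (89.7%), against 22.5% of all genes tested. It lay lower by a log2 value over 1 in both genotypes for 31 members (79.5%), against 2.49% of all genes. The interest in replicate 2 arose from earlier results of the same arrays, so these values are a description and no test was made of them.

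The remaining arrays were not alike either. Gata3+/- replicates 1 and 3 differed in no common direction. Replicate 1 minus replicate 3 had a median of -0.03 over the members and was negative for 20 of 39. Gata3-/- replicate 1, in contrast, lay below replicate 3 by a median of 1.18, for 36 of 39 members. For 26 members (66.7%, all genes 2.53%) the arrays fell in one order, with Gata3+/- replicates 1 and 3 and Gata3-/- replicate 3 on top, then Gata3-/- replicate 1, Gata3+/- replicate 2 and Gata3-/- replicate 2. This order was noticed after the values were seen. The mean level of the tested members was 8.99, 6.72 and 9.07 on the Gata3+/- arrays and 7.90, 6.36 and 8.99 on the Gata3-/- arrays. The lowest array was Gata3-/- replicate 2 for 29 members, Gata3+/- replicate 2 for 9 and Gata3+/- replicate 3 for 1.

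**Figure D1:**
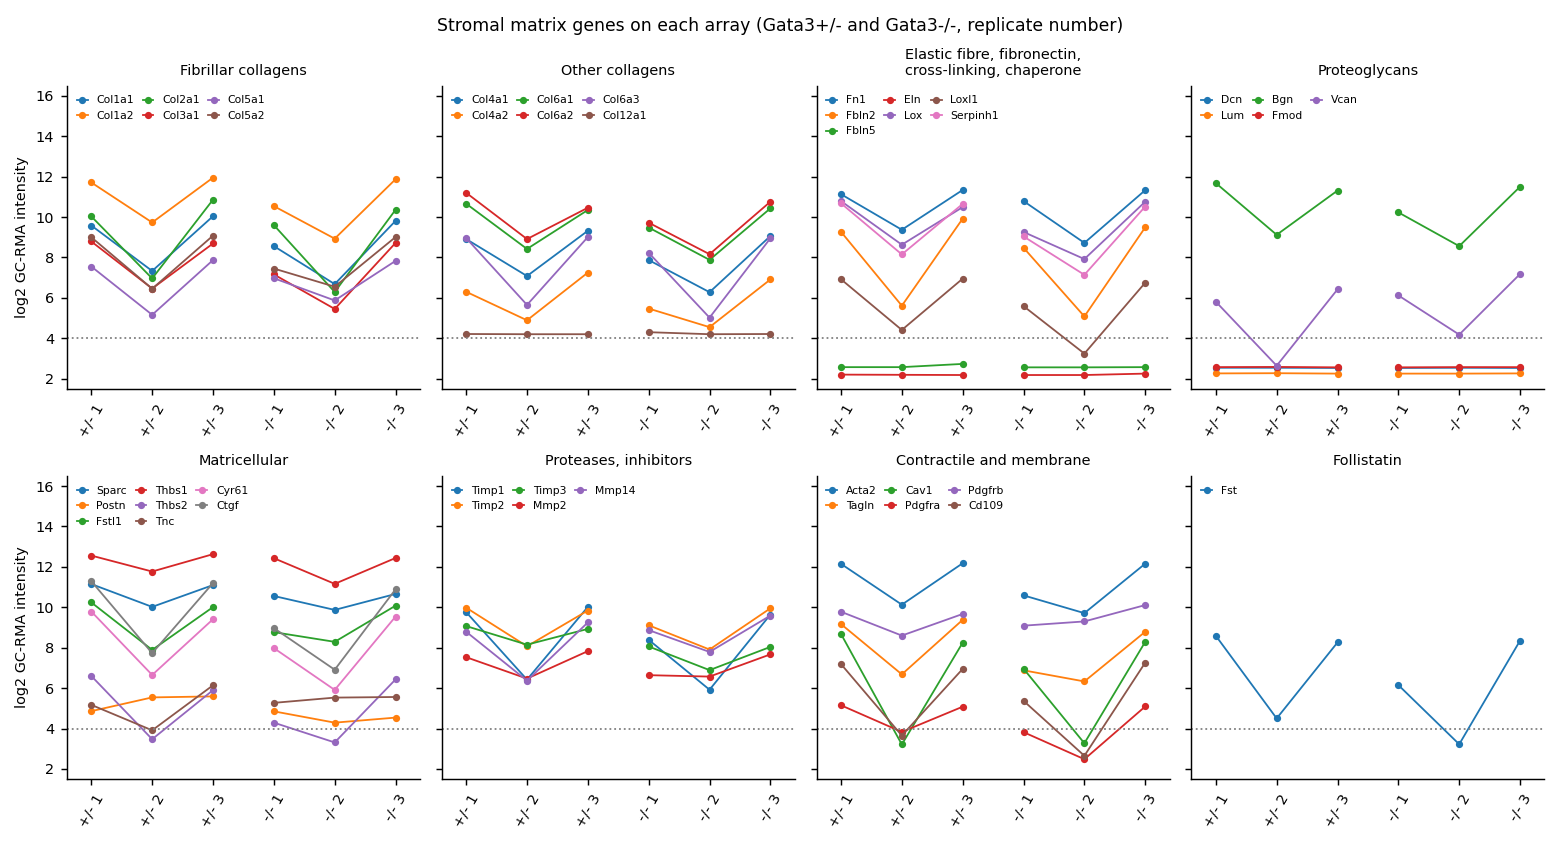
Log2 GC-RMA intensity (y axis) of the 44 matrix genes on the 3 Gata3+/- and 3 Gata3-/- arrays (x axis, genotype and replicate number), in panels by role; each line joins the arrays of 1 gene within a genotype and the dotted line marks the minimum of 4. Most lines dip at replicate 2 of both genotypes, and Gata3-/- replicate 1 lies below replicate 3 for 36 of the 39 tested genes.

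The fibrillar collagens, the load-bearing fibres of connective tissue, all dipped on replicate 2. Col1a1, the main chain of type I collagen, stood at 9.58, 7.33 and 10.04 on the Gata3+/- arrays and 8.56, 6.68 and 9.81 on the Gata3-/- arrays. Col1a2, its partner chain, stood at 11.71, 9.73 and 11.95 on the Gata3+/- arrays and 10.54, 8.93 and 11.87 on the Gata3-/- arrays, and Col3a1, the collagen of reticular fibres, at 8.79, 6.46 and 8.69 on the Gata3+/- arrays and 7.16, 5.45 and 8.72 on the Gata3-/- arrays. The 2 chains of type I collagen thus had shifts of -2.48 and -2.51 and of -2.10 and -2.28 in Gata3+/- and Gata3-/-, and Col3a1 of -2.28 and -2.49. For all 3 genes Gata3-/- replicate 3 lay between Gata3+/- replicates 1 and 3, and Gata3-/- replicate 1 lay between the low arrays and the high ones. Col5a1, a chain of the type V collagen that starts fibril assembly, stood at 7.55, 5.16 and 7.87 on the Gata3+/- arrays and 6.97, 5.87 and 7.83 on the Gata3-/- arrays. Its partner Col5a2 ranged from 6.45 on Gata3+/- replicate 2 to 9.08 on Gata3+/- replicate 3. For both chains of type V, Gata3+/- replicate 2 was the lowest array of all, so the order of the 2 low arrays was the opposite of that in type I collagen. Col2a1, best known as the collagen of cartilage, stood at 10.03, 6.96 and 10.86 on the Gata3+/- arrays and 9.60, 6.29 and 10.36 on the Gata3-/- arrays, with larger shifts of -3.48 and -3.68.

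Of the other collagens, 5 of 6 followed the same pattern. Col4a1 and Col4a2, chains of the basement membrane collagen, lie head to head on chromosome 8, and their RefSeq starts are 21 bases apart on opposite strands (GRCm38.p6). Col4a1 stood at 8.91, 7.08 and 9.32 on the Gata3+/- arrays and 7.87, 6.28 and 9.06 on the Gata3-/- arrays and Col4a2 at 6.30, 4.89 and 7.25 on the Gata3+/- arrays and 5.47, 4.55 and 6.91 on the Gata3-/- arrays. The pair dipped to a like extent, with shifts of -2.03 and -2.18 for Col4a1 and -1.88 and -1.64 for Col4a2. The chains of type VI collagen, which forms beaded filaments around cells, were led by Col6a2 at 11.20, 8.91 and 10.46 on the Gata3+/- arrays and 9.72, 8.16 and 10.76 on the Gata3-/- arrays. Col6a1 stood at 10.66, 8.42 and 10.35 on the Gata3+/- arrays and 9.48, 7.88 and 10.43 on the Gata3-/- arrays, and Col6a3 at 8.96, 5.65 and 9.01 on the Gata3+/- arrays and 8.23, 5.02 and 8.95 on the Gata3-/- arrays. Col6a3 shifted by -3.34 and -3.57, more than its partners Col6a1 (-2.09 and -2.08) and Col6a2 (-1.92 and -2.08), although the 3 chains assemble into one protein. Col12a1, a collagen that associates with fibrils, was flat at 4.20 to 4.30 on all arrays, just above the minimum, and its 3 other probe sets were not tested.

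Fibronectin and the elastic fibre genes split into measured and unmeasured members. Fn1, which encodes fibronectin, the glycoprotein that links cells to collagen, stood at 11.13, 9.37 and 11.34 on the Gata3+/- arrays and 10.79, 8.72 and 11.33 on the Gata3-/- arrays. Fbln2, a fibulin of elastic fibres and basement membranes, stood at 9.27, 5.61 and 9.92 on the Gata3+/- arrays and 8.48, 5.08 and 9.49 on the Gata3-/- arrays, and its shifts of -3.99 and -3.91 were among the largest. Eln, which encodes elastin, and Fbln5, a fibulin needed for elastic fibre assembly, never reached the minimum, at 2.18 to 2.25 and 2.56 to 2.73.

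The tested cross-linking enzymes and the collagen chaperone among the members followed the collagens. A separate list of collagen-modifying enzymes, described below, shifted less, with medians of -0.43 and -0.21. Lox, the lysyl oxidase that starts cross-linking, stood at 10.79, 8.63 and 10.49 on the Gata3+/- arrays and 9.26, 7.92 and 10.76 on the Gata3-/- arrays. Serpinh1, the collagen chaperone HSP47 of the endoplasmic reticulum, stood at 10.68, 8.15 and 10.65 on the Gata3+/- arrays and 9.04, 7.14 and 10.52 on the Gata3-/- arrays. Loxl1, a relative of Lox that acts on elastin, stood at 6.92, 4.41 and 6.95 on the Gata3+/- arrays and 5.59, 3.24 and 6.75 on the Gata3-/- arrays. The shifts were -2.00 and -2.09 for Lox, -2.52 and -2.64 for Serpinh1 and -2.53 and -2.92 for Loxl1, and Gata3-/- replicate 2 of Loxl1 was under the minimum, where values carry little information.

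Among the member proteoglycans, biglycan was high and its small leucine-rich relatives were not measurable. Bgn stood at 11.68, 9.12 and 11.31 on the Gata3+/- arrays and 10.23, 8.56 and 11.50 on the Gata3-/- arrays. Decorin (Dcn), lumican (Lum) and fibromodulin (Fmod), small leucine-rich proteoglycans that bind collagen fibrils and mark many fibroblasts, had no value above 2.58 on any array in their brightest probe set. Vcan, the large proteoglycan versican, which monocytes also make, stood at 5.81, 2.64 and 6.42 on the Gata3+/- arrays and 6.12, 4.18 and 7.18 on the Gata3-/- arrays. On this probe set it was highest on Gata3-/- replicate 3. Its other tested probe set, at 4.66, 2.69 and 5.88 on the Gata3+/- arrays and 4.57, 2.46 and 5.76 on the Gata3-/- arrays, was highest on Gata3+/- replicate 3 and had the order of arrays described for the 26 members, to which biglycan belongs, so the probe sets disagree.

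Matricellular proteins, which signal to cells rather than bear load, included the brightest member and some of the dimmest. Thbs1, thrombospondin 1, was the brightest of all members at 12.56, 11.77 and 12.63 on the Gata3+/- arrays and 12.43, 11.16 and 12.44 on the Gata3-/- arrays, with shifts of -0.83 and -1.27. Sparc, a collagen-binding glycoprotein, stood at 11.15, 10.02 and 11.10 on the Gata3+/- arrays and 10.56, 9.87 and 10.66 on the Gata3-/- arrays, and its shifts were -1.11 and -0.74. Ctgf, connective tissue growth factor (listed as Ccn2), stood at 11.29, 7.73 and 11.20 on the Gata3+/- arrays and 8.97, 6.91 and 10.89 on the Gata3-/- arrays. Ctgf and Cyr61, which are both known to be induced by YAP signalling and by serum, dipped by more than Sparc did. Cyr61 stood at 9.79, 6.65 and 9.41 on the Gata3+/- arrays and 7.98, 5.91 and 9.54 on the Gata3-/- arrays, with shifts of -2.95 and -2.85 against -3.51 and -3.02 for Ctgf. Fstl1, a secreted follistatin-like glycoprotein, stood at 10.24, 7.89 and 10.01 on the Gata3+/- arrays and 8.77, 8.29 and 10.08 on the Gata3-/- arrays, and here Gata3+/- replicate 2 was the lowest array. Thbs2, thrombospondin 2, stood at 6.60, 3.47 and 5.90 on the Gata3+/- arrays and 4.29, 3.31 and 6.43 on the Gata3-/- arrays, with 4 of 6 arrays at the minimum or above. Tenascin C (Tnc) and periostin (Postn), both glycoproteins of growing and healing tissue, departed from the pattern. Tnc stood at 5.17, 3.91 and 6.14 on the Gata3+/- arrays and 5.27, 5.53 and 5.56 on the Gata3-/- arrays, low on Gata3+/- replicate 2 but not on Gata3-/- replicate 2. Postn stood at 4.86, 5.54 and 5.59 on the Gata3+/- arrays and 4.85, 4.29 and 4.54 on the Gata3-/- arrays, with Gata3+/- replicate 2 among the high arrays.

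The inhibitors and proteases all had replicate 2 as their lowest array within each genotype. Timp1 stood at 9.76, 6.42 and 10.02 on the Gata3+/- arrays and 8.39, 5.92 and 9.64 on the Gata3-/- arrays. Timp2, which also takes part in activating MMP2, stood at 9.98, 8.07 and 9.84 on the Gata3+/- arrays and 9.11, 7.91 and 9.95 on the Gata3-/- arrays. Timp3, the inhibitor that stays bound to the matrix, stood at 9.07, 8.15 and 8.93 on the Gata3+/- arrays and 8.06, 6.89 and 8.04 on the Gata3-/- arrays. Timp1 dipped most (-3.47 and -3.10), then Timp2 (-1.84 and -1.62) and Timp3 (-0.85 and -1.16). For Timp3, all Gata3-/- arrays lay below all Gata3+/- arrays. Mmp2, the gelatinase, stood at 7.53, 6.47 and 7.83 on the Gata3+/- arrays and 6.64, 6.57 and 7.67 on the Gata3-/- arrays, and Mmp14, the membrane protease that activates it, at 8.79, 6.37 and 9.25 on the Gata3+/- arrays and 8.87, 7.79 and 9.59 on the Gata3-/- arrays. Mmp14 had Gata3-/- replicate 3 as its highest array and dipped more in Gata3+/- (-2.64) than in Gata3-/- (-1.44).

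Contractile and membrane genes, described here with follistatin, included the members with the widest range over the arrays. Acta2, smooth muscle actin, stood at 12.15, 10.13 and 12.18 on the Gata3+/- arrays and 10.59, 9.71 and 12.16 on the Gata3-/- arrays and was the second brightest member. Tagln, the actin-binding protein transgelin, stood at 9.17, 6.68 and 9.38 on the Gata3+/- arrays and 6.88, 6.33 and 8.79 on the Gata3-/- arrays. Both fell from Gata3-/- replicate 3 to replicate 1 by more than from replicate 1 to replicate 2. Cav1, caveolin 1 of membrane caveolae, stood at 8.68, 3.21 and 8.25 on the Gata3+/- arrays and 6.96, 3.27 and 8.29 on the Gata3-/- arrays, at least 25.5-fold between its highest array and the minimum. Cd109, a surface protein that binds TGF-beta, stood at 7.19, 3.65 and 6.95 on the Gata3+/- arrays and 5.37, 2.65 and 7.26 on the Gata3-/- arrays. Fst, follistatin, the secreted antagonist of activin, stood at 8.59, 4.50 and 8.26 on the Gata3+/- arrays and 6.15, 3.22 and 8.35 on the Gata3-/- arrays, at least 24-fold between its highest array and the minimum. For Cav1 and Cd109 both replicate 2 arrays were under the minimum, and for Fst the Gata3-/- replicate 2 array was, so the sizes of these shifts are bounded by the floor of the measurement. The receptors for platelet-derived growth factor differed from each other. Pdgfra, a marker of mesenchymal progenitors, stood at 5.15, 3.83 and 5.08 on the Gata3+/- arrays and 3.82, 2.48 and 5.09 on the Gata3-/- arrays, near the minimum throughout. Pdgfrb, a marker of pericytes and stromal cells, stood at 9.78, 8.60 and 9.67 on the Gata3+/- arrays and 9.09, 9.30 and 10.11 on the Gata3-/- arrays. Its Gata3-/- replicate 2 lay above Gata3-/- replicate 1, unlike that of 37 of the 39 tested members, for which replicate 2 was the lowest Gata3-/- array.

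**Figure D2:**
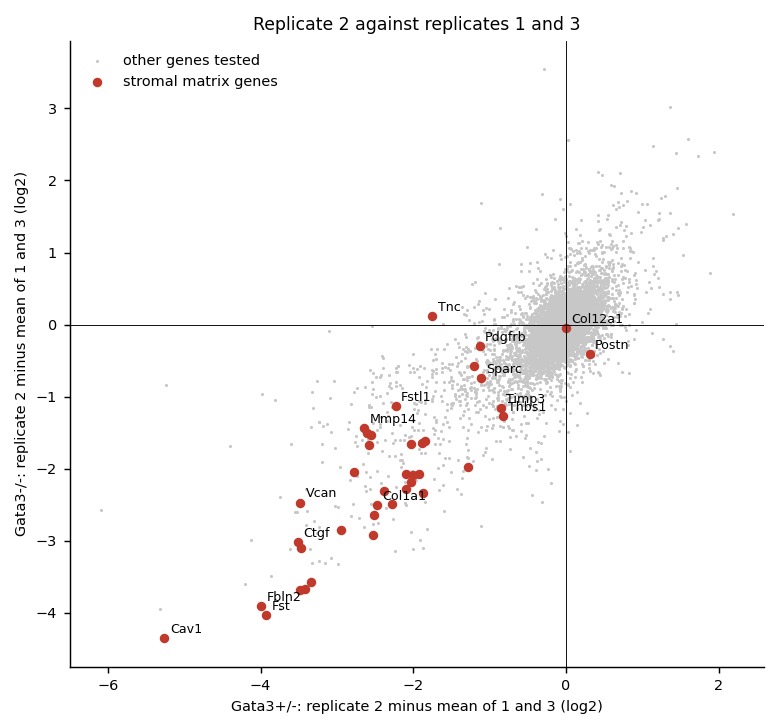
Shift of replicate 2 against the mean of replicates 1 and 3 (log2) in Gata3+/- (x axis) and Gata3-/- (y axis), for the 39 tested matrix genes (red, some labelled) and the other genes tested (grey); each point is 1 gene. The matrix genes lie mostly in the lower left, with medians of -2.28 and -2.08, and Tnc, Pdgfrb, Postn and Col12a1 lie apart from them.

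Other probe sets of the members gave the same picture of replicate 2. Of 27 further tested probe sets of 21 members, 25 had replicate 2 lowest in both genotypes. None of the 27 was called between genotypes (limma), and 1, of Vcan, had the opposite sign of genotype difference. The members also varied more than most genes: the median SD within a genotype was 1.30 over the members and 0.15 over all genes tested. Between its highest and lowest array a member differed by a median of 3.04, and 21 of 39 by over 3.

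No member passed the threshold between the genotypes. Of 39 tested members 0 were called higher and 0 lower in Gata3-/- arrays by limma (adjusted p under 0.05 over all probe sets tested), against 2.86% of all genes called higher and 2.41% called lower. An unadjusted p under 0.05 was reached by 2 of 39 members, against 2663 of all 10302 genes tested. The differences, Gata3-/- minus Gata3+/-, were negative for 33 members and positive for 6, with a median of -0.61 against -0.02 over all genes tested. That median is smaller than the median SD of 1.30 within a genotype, and the 95% interval of a member reached a median of 2.20 to either side. This fit counts all spread between replicates as error. In it, a difference below that size did not reach an unadjusted p under 0.05 for a typical member. A p that misses the threshold does not show that the genotypes were alike.

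Typical members had wide intervals around a small difference. Col1a1 averaged 8.99 ± 1.45 and 8.35 ± 1.58 (SD, n = 3 per genotype) in Gata3+/- and Gata3-/- arrays, a difference of -0.63 (SE 1.03, 95% interval -3.19 to 1.92). Acta2 averaged 11.48 ± 1.17 and 10.82 ± 1.24, a difference of -0.66 (SE 0.82, 95% interval -2.70 to 1.38), and Fn1 10.61 ± 1.08 and 10.28 ± 1.37, a difference of -0.33 (SE 0.85, 95% interval -2.43 to 1.76). All 3 had overlapping genotypes. On their other tested probe sets the differences of Col1a1 and Fn1 were -0.04 and -0.06. Over the second brightest probe sets of 21 members the median difference was -0.36, against -0.61 over the brightest of 39. The most negative differences were those of Fst at -1.21 (SE 1.66, 95% interval -5.31 to 2.89) and Ctgf at -1.15 (SE 1.37, 95% interval -4.54 to 2.24), and the most positive that of Vcan at 0.87 (SE 1.23, 95% interval -2.16 to 3.90), which was -0.15 on its other tested probe set. The adjusted p of these 6 genes lay between 0.673 and 0.854 (limma). Sparc, with less spread, averaged 10.76 ± 0.64 and 10.36 ± 0.43, a difference of -0.39 (SE 0.38, 95% interval -1.32 to 0.54). Leaving out each array in turn moved the difference of Acta2 between -1.34 and -0.11, that of Ctgf between -2.32 and -0.14 and that of Sparc between -0.76 and -0.15, while Col1a1, Fn1, Fst and Vcan changed sign. For all 3 genes the most negative value came without Gata3+/- replicate 2 and the value nearest 0 without Gata3-/- replicate 2.

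The genotypes did not overlap for Timp3 and Postn, 2 of 39 members (5.13%), against 33.6% of all genes tested. Timp3 averaged 8.72 ± 0.50 and 7.66 ± 0.67, a difference of -1.05 (SE 0.41, 95% interval -2.06 to -0.05) with an adjusted p of 0.197 (limma). Postn averaged 5.33 ± 0.41 and 4.56 ± 0.28, a difference of -0.77 (SE 0.25, 95% interval -1.38 to -0.16) with an adjusted p of 0.138 (limma). Without each array in turn the difference of Timp3 lay between -1.34 and -0.67, smallest without Gata3-/- replicate 2. Neither gene passed, and the share of members without overlap was below that of all genes. With a wide spread within a genotype (median SD 1.30, all genes 0.15) ranges overlap readily, so this share says little of the genotypes. Mmp14, Vcan, Tnc, Pdgfrb, Col12a1 and Col5a1 were the 6 members with a positive difference, from 0.03 for Col5a1 to 0.87 for Vcan.

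**Figure D3:**
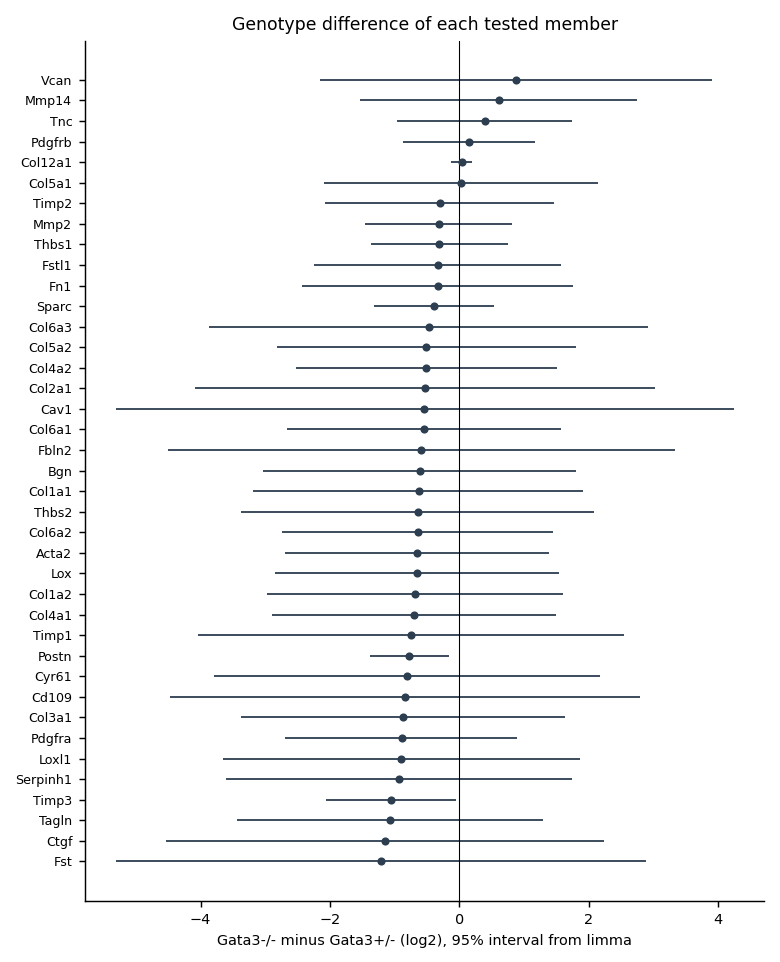
Difference between genotypes, Gata3-/- minus Gata3+/- in log2 units (x axis), of each of the 39 tested matrix genes (y axis), with points for the limma estimate and bars for its 95% interval, from 3 arrays per genotype. The intervals of all but Postn and Timp3 include 0, and neither of these passed after adjustment over all probe sets tested.

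The size of the genotype difference depended on which arrays were set against each other. Gata3-/- replicate 1 lay below Gata3+/- replicate 1 by a median of 1.16 over the members, with 35 of 39 negative. For the arrays numbered 2 the median was -0.56 with 29 negative, and for those numbered 3 it was -0.04 with 22 negative. Over all genes tested the same medians were -0.00, 0.00 and -0.04. A difference negative for all 3 numbers was found for 18 of 39 members, against 3001 of all 10302 genes tested. Timp3 was among the members, at -1.01, -1.26 and -0.89. The numbers are used here only to line the arrays up, since nothing in the labels says that they pair cultures.

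The median turned sign only where Gata3-/- replicate 2 alone was left out, which keeps the low replicate 2 array in Gata3+/- only. Without Gata3-/- replicate 2 the median difference of the members was 0.08, with 10 of 39 negative, and without Gata3+/- replicate 2 it was -1.34, with 38 negative. It was -1.31 without Gata3-/- replicate 3, -0.73 without Gata3-/- replicate 1, -0.19 without Gata3+/- replicate 1 and -0.22 without Gata3+/- replicate 3. Without both arrays numbered 2 it was -0.62, with 36 negative. In each of these fits 0 members passed (limma), with 0 to 2 at an unadjusted p under 0.05. Over all 10302 genes tested, 2037 to 2484 reached it.

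**Figure D4:**
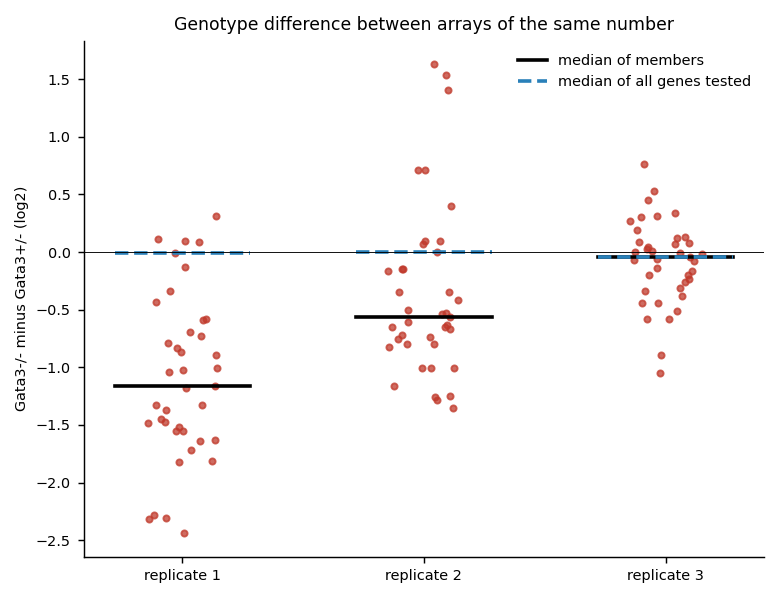
Gata3-/- minus Gata3+/- in log2 units (y axis) between arrays of the same replicate number (x axis) for the 39 tested matrix genes (points, spread sideways for legibility), with the median of the members (black) and of all genes tested (blue, dashed). The members' median goes from -1.16 for number 1 to -0.56 for number 2 and -0.04 for number 3.

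Chromosome 11 holds Col1a1, Sparc and Timp2. Its 886 tested genes had a median difference between genotypes of 0.33, while the 3 matrix genes had -0.63, -0.39 and -0.30. The part of the chromosome in these values was not tested.

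Further lists were read beside the members, and in each the called genes or else the 3 brightest are named. Genes given beyond that are marked as picked after their values were seen. Counts at an unadjusted p under 0.05 (limma) are given for these lists. Over all 10302 genes tested that count was 2663. With any 1 array left out, 0 to 4 of all genes were called, against 543 with all 6 arrays. The 4 list genes called in the paragraphs that follow, Nid2, P4ha1, Tpm2 and Mpeg1, then had adjusted p-values between 0.0566 and 0.121 (limma), so each call ended without any 1 of the arrays, with its direction kept.

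Matrix genes outside the list had smaller shifts. Of 16 tested genes out of 25 on the array, 9 had replicate 2 lowest in both genotypes, with median shifts of -0.46 in Gata3+/- and -0.55 in Gata3-/-. Between genotypes Nid2, a nidogen of basement membranes, fell by 1.05 (SE 0.18, limma adjusted p = 0.0422), and 15 did not pass (4 of 16 at an unadjusted p under 0.05). Nid2 stood at 6.77, 7.24 and 6.87 on the Gata3+/- arrays and 5.72, 5.82 and 6.19 on the Gata3-/- arrays, with the Gata3+/- replicate 2 array the highest of all. Picked after their values were seen, Nid1, the other nidogen, shifted by -2.47 and -1.63, and Ecm1, an extracellular matrix protein, by -2.16 and -1.98.

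The enzymes that modify collagen shifted little as a list. Of 11 tested, 7 had replicate 2 lowest in both genotypes, but the median shifts were -0.43 and -0.21. P4ha1, a prolyl hydroxylase subunit, fell by 0.71 in Gata3-/- arrays (SE 0.09, limma adjusted p = 0.0326), from 9.06, 9.11 and 9.25 to 8.50, 8.30 and 8.47, and 10 did not pass (4 of 11 at an unadjusted p under 0.05). Pcolce, the secreted enhancer of procollagen processing, was picked after its values were seen, at 11.14, 8.99 and 10.89 on the Gata3+/- arrays and 9.72, 8.33 and 11.05 on the Gata3-/- arrays. Its shifts of -2.03 and -2.05 were of the size seen in the collagens.

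Of 7 contractile genes tested, 5 had replicate 2 lowest in both genotypes. Tpm2, a tropomyosin, fell by 1.59 between genotypes (SE 0.23, limma adjusted p = 0.0349), with levels of 10.86 to 11.15 on the Gata3+/- arrays and 9.15 to 9.91 on the Gata3-/- arrays, while 6 did not pass (1 of 7 at an unadjusted p under 0.05). Its shifts were 0.23 and -0.36, whereas Cald1, caldesmon, picked after its values were seen, shifted by -2.26 and -2.70.

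Of 10 tested TGF-beta and YAP genes 0 passed between genotypes (limma, 1 at an unadjusted p under 0.05), and 7 had replicate 2 lowest in both genotypes, with median shifts of -0.54 and -0.36. The 3 brightest were Tgfbr1 and Tgfbr2, the signalling receptors, with shifts of -0.22 and -0.48 and of -0.07 and -0.24, and the ligand Tgfb1, with -0.11 and -0.17. Picked after their values were seen, Tgfb2, another ligand, shifted by -2.96 and -1.97, and Ajuba and Amotl2, of the Hippo and YAP pathway, by -2.99 and -3.32 and by -1.64 and -1.47.

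Other genes of stromal cells and preadipocytes were mixed. Of 15 tested, 10 had replicate 2 lowest in both genotypes, 0 passed between genotypes (limma, 3 at an unadjusted p under 0.05), and the median shifts were -1.15 and -0.87. Lpl, the lipoprotein lipase of fat cells and macrophages, stood at 14.56, 14.31 and 14.40 on the Gata3+/- arrays and 13.80, 13.76 and 14.38 on the Gata3-/- arrays. Fabp4, a fatty acid carrier of the same cells, stood at 11.57, 9.69 and 10.98 on the Gata3+/- arrays and 10.49, 9.18 and 11.58 on the Gata3-/- arrays, and Igfbp4, a secreted binding protein, at 10.34, 10.17 and 10.96 on the Gata3+/- arrays and 9.28, 8.57 and 9.60 on the Gata3-/- arrays. Fabp4 shifted by -1.59 and -1.85, Igfbp4 by -0.48 and -0.87 and Lpl by -0.17 and -0.33. Prrx1, a homeobox factor of mesenchyme picked after its values were seen, stood at 9.85, 6.66 and 9.61 on the Gata3+/- arrays and 8.19, 5.73 and 9.75 on the Gata3-/- arrays and kept the order of arrays described for the 26 members. Dll1, whose product the OP9-DL1 line displays, was not tested, since only Gata3+/- replicates 2 and 3 reached the minimum, at 5.13 and 4.32; it too was picked after its values were seen.

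Blood cell genes shifted little as lists. Replicate 2 was lowest in both genotypes for 2 of 10 pan-haematopoietic genes and 5 of 10 macrophage genes, against 22.5% of all genes tested. The median shifts were 0.07 and 0.00 for the 10 pan-haematopoietic genes, of which 0 passed between genotypes (limma, 2 at an unadjusted p under 0.05). They were -0.16 and -0.15 for 10 macrophage genes. Mpeg1, a perforin-like protein of macrophages, fell by 0.66 between genotypes (SE 0.11, limma adjusted p = 0.0383), and 9 of that list did not pass. Of the 10, 7 had an unadjusted p under 0.05, 9 had a negative difference and 7 had genotypes that did not overlap, against 33.6% of all genes without overlap. The 1 positive difference was that of Cd68, at 0.53 (limma adjusted p = 0.0541), picked after its values were seen. Mrc1, the mannose receptor, picked likewise, had the most negative difference of the macrophage list, -1.84 (limma adjusted p = 0.118). Its shift was -0.32 in Gata3+/- and -1.86 in Gata3-/-, the largest of that list in Gata3-/-. Mrc1 stood at 11.23, 11.17 and 11.76 on the Gata3+/- arrays and 10.10, 8.30 and 10.23 on the Gata3-/- arrays. The mean level of the macrophage list ran from 12.72 to 12.95 on the Gata3+/- arrays and from 12.14 to 12.56 on the Gata3-/- arrays, while that of the matrix members ran from 6.72 to 9.07 and from 6.36 to 8.99. None of the 10 genes on either blood list lay under the minimum.

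Matrix members that monocytes and macrophages are known to make also had replicate 2 as their lowest array in both genotypes, 5 of 5. Fn1, Timp2, Mmp14, Thbs1 and Vcan had median shifts of -1.87 and -1.62. Of endothelial genes 5 of 7 were tested, with median shifts of -0.13 and -0.25 and 0 passing between genotypes (limma, 2 at an unadjusted p under 0.05). Replicate 2 was lowest in both genotypes for 3 of these 5. Pecam1, Kdr and Tie1, a surface adhesion molecule and a pair of receptors, were the brightest. Pecam1 shifted by -0.42 and -0.28, Kdr by -0.03 and 0.03 and Tie1 by -0.81 and -1.33. Cdh5 and Emcn, an endothelial cadherin and a sialomucin, lay under the minimum on all arrays; they were picked after their values were seen.

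**Figure D5:**
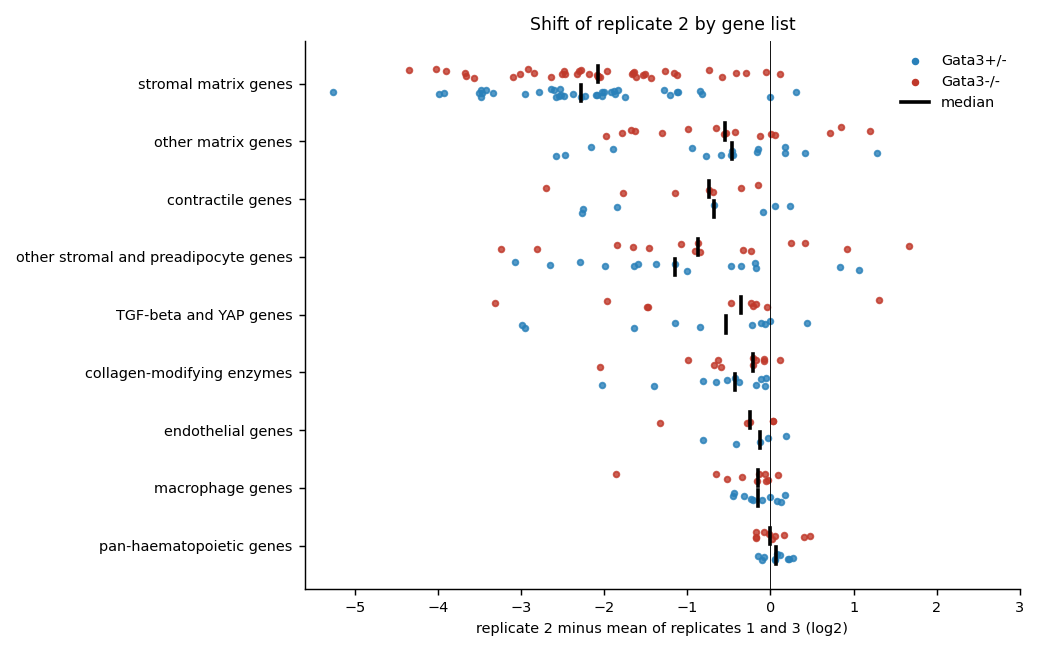
Shift of replicate 2 against the mean of replicates 1 and 3 (x axis, log2) for the tested genes of 9 lists (y axis), Gata3+/- in blue and Gata3-/- in red; each point is 1 gene and the bar is the list's median. The stromal matrix genes have medians of -2.28 and -2.08, and the pan-haematopoietic genes 0.07 and 0.00.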

How the data were processed

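Intensities deposited by the authors, for 45101 probe sets on 6 Affymetrix arrays, were made with GC-RMA per the labels, which corrects background by probe sequence and normalizes between arrays. The submitters' processing notes name GCOS, with no version or settings. Array medians lay between 8.57 and 8.93, and low values form a floor. Values were taken to log2 and not normalized again, leaving aside 64 controls. Testing required a log2 value of 4 or more (intensity 16) on 3 or more of the arrays, which 20102 probe sets of 10302 named genes and of unnamed ones met. Genes were named from the platform annotation, with older symbols matched through a RefSeq table (GRCm38.p6), and each is its brightest tested probe set.

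Genotypes were compared with limma 3.58.1 in R 4.3.3 (lmFit, eBayes, two-sided), with Benjamini-Hochberg adjustment over all probe sets tested and a threshold of 0.05. The procedure was tested on simulated data, drawn independently for each probe set and array. These had no effect shared by replicates, unlike the arrays described here. Figures used matplotlib 3.10.9 and Python 3.11.15. The members and lists were chosen with earlier results of these data known. The rule gave values per array for the 12 brightest members and the 6 with the widest range; array values of the remaining members were added after they had been seen. Alternatives were 2 other filters, quantile normalization, median centring, a pseudocount of 16, array weights, robust eBayes with a variance trend, the mean or the second brightest probe set of a gene, the replicate block, and leaving out arrays.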

Additional observations from a re-analysis of the deposited data

How the results depend on the processing

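With limma 0 members passed between the genotypes under every alternative run except the replicate block. Under that block 1 passed, Timp3 (difference -1.05, limma adjusted p = 0.0431). There 14 rather than 2 members had an unadjusted p under 0.05, against 2940 rather than 2663 of all 10302 genes tested. Over the other alternatives the lowest adjusted p of any member lay between 0.0781 and 0.36. Over the tested probe sets, same-numbered arrays deviated together with a correlation of 0.695 for number 2 and 0.429 for number 3 but 0.00501 for number 1, where Gata3+/- replicate 1 went better with Gata3-/- replicate 3 (0.424), so no pairing is assumed. Of all genes 543 were called, against 98 without a filter, 824 with a variance trend and robust eBayes, 1224 with array weights, 298 with the replicate block, 190 with the second brightest probe sets, 3 without both arrays numbered 2 and 0 to 4 without each array in turn; the last 3 counts come from fewer genes or fewer arrays, and the cause of the others was not tested. The same alternatives, applied to the 5 called genes of other lists (Nid2, P4ha1, Tpm2, Mpeg1 and Epcam) after seeing the data, reversed none of their signs but ended each call without a filter, with the replicate block, without any 1 array and without both arrays numbered 2, and that of P4ha1 also with its second brightest probe set. Replicate 2 was lowest in both genotypes for 20 of 21 second brightest probe sets and for 33 to 35 members under the other alternatives run, and the median shift lay between -2.43 and -2.04 in Gata3+/- and between -2.23 and -1.40 in Gata3-/-. Uncalled genotype differences turned sign: Col5a1 (0.03) to -0.09 with array weights, -0.01 with the pseudocount and -0.31 without both arrays numbered 2, Pdgfrb (0.15) to -0.01 with array weights and -0.12 without those arrays, Tnc (0.39) to -0.24 without them, and Vcan, whose 0.87 was the most positive of the members, to -0.15 with its second brightest probe set; the cause was not tested. Leaving out each array in turn moved across 0 the differences of Col1a1 from -1.46 to 0.20, Col1a2 from -1.40 to 0.08, Col2a1 from -1.70 to 0.69, Col4a1 from -1.38 to 0.03, Col4a2 from -1.14 to 0.05, Col5a1 from -0.82 to 0.54, Col5a2 from -1.37 to 0.05, Col6a1 from -1.24 to 0.15, Col6a2 from -1.28 to 0.05, Col6a3 from -1.59 to 0.72, Fn1 from -0.96 to 0.44, Fbln2 from -1.92 to 0.72, Lox from -1.38 to 0.04, Loxl1 from -1.74 to 0.08, Bgn from -1.40 to 0.16, Fstl1 from -1.08 to 0.10, Timp1 from -1.90 to 0.28, Timp2 from -0.91 to 0.24, Mmp14 from -0.27 to 1.17, Thbs1 from -0.59 to 0.11, Thbs2 from -1.57 to 0.04, Tnc from -0.20 to 0.92, Vcan from -0.29 to 1.70, Cav1 from -2.29 to 0.91, Pdgfrb from -0.22 to 0.37, Cyr61 from -1.79 to 0.14, Fst from -2.52 to 0.14 and Cd109 from -1.98 to 0.39. Values under the log2 minimum of 4 carry little information, which bounds the shifts of dim members.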

Other observations

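Col2a1 was measured while most other cartilage genes were not. While Col2a1 reached 10.86 on Gata3+/- replicate 3, Sox9, the transcription factor of chondrocytes, stood at 3.23, 3.23 and 3.17 on the Gata3+/- arrays and 3.21, 3.25 and 3.15 on the Gata3-/- arrays, and Acan, the cartilage proteoglycan aggrecan, at 2.01 to 2.04 on all arrays. Of 6 chondrocyte genes on the array 5 never reached the minimum, and Col9a1, a cartilage collagen, stood at 5.98, 6.72 and 6.60 on the Gata3+/- arrays and 7.12, 6.97 and 6.63 on the Gata3-/- arrays without the dip of Col2a1. Col2a1 had 1 probe set on the array. Sox9 and Acan were picked after their values were seen.

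Stromal genes with the opposite shift were also present. Cxcl12, the chemokine by which stroma holds blood progenitors, stood at 8.76, 9.43 and 8.43 on the Gata3+/- arrays and 7.66, 9.18 and 8.86 on the Gata3-/- arrays, and Angpt1, a ligand of the TIE2 receptor, at 7.86, 8.76 and 7.54 on the Gata3+/- arrays and 7.28, 9.38 and 8.13 on the Gata3-/- arrays. In both, replicate 2 was the highest array of each genotype, with shifts of 0.84 and 0.92 and 1.06 and 1.67, whereas it was the highest in both genotypes for 0 of the 39 tested matrix genes. Spon1, a secreted matrix protein, stood at 7.20, 8.93 and 8.11 on the Gata3+/- arrays and 5.63, 6.42 and 4.80 on the Gata3-/- arrays, with shifts of 1.28 and 1.20 and a genotype difference of -2.47 (limma adjusted p = 0.0714). These genes were picked out after their values were seen.

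The 4 measured epithelial genes did not move one way. Epcam, a cell adhesion molecule, rose by 1.62 in Gata3-/- arrays (SE 0.25, limma adjusted p = 0.0363), at 4.59, 4.50 and 4.70 on the Gata3+/- arrays and 6.78, 5.91 and 5.97 on the Gata3-/- arrays. The call ended with any 1 array left out (adjusted p between 0.06 and 0.116). The other 3 did not pass, with differences of 2.22 for Cdh1, the epithelial cadherin, and of -1.57 and -0.49 for the keratins Krt8 and Krt18 (limma adjusted p 0.108, 0.0903 and 0.396). These 3 were named after their values were seen.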
